A study of Mus musculus with 40 samples.

Results

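Wild-type (Wt) mouse liver was compared between 30 and 3 μmol/kg CDDO-Im, an oleanane triterpenoid imidazolide that activates the transcription factor Nrf2. The arrays were chosen by their labels, as the 4 Wt livers labelled 30 μmol/kg and the 4 Wt livers labelled 3 μmol/kg. They are 8 of the 40 arrays of the series. This pair of doses was described beforehand as having similar clock gene levels. The series holds Wt and Nrf2-null C57BL/6J males, 12 weeks old, given vehicle, D3T or 1 of 3 doses of CDDO-Im by gavage, with 4 mice in each of 10 groups and 1 Affymetrix array per mouse. Every mouse had 3 treatments over 5 days and was euthanized 24 hours after the last. All groups ate AIN-76A diet without ethoxyquin, and the vehicle was Cremophor-EL and DMSO in phosphate-buffered saline. The 30 and 3 μmol/kg groups of Nrf2-null mice, which lack functional Nrf2 in all tissues, served as the same dose comparison without Nrf2, and the Wt vehicle and 10 μmol/kg groups are given where a dose order is described.

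Nrf2 is held in the cytoplasm and marked for degradation by Keap1, whose reactive cysteines are modified by electrophiles such as CDDO-Im. Nrf2 that escapes degradation enters the nucleus, pairs with a small Maf protein and binds antioxidant response elements near genes of quinone and carbonyl reduction, glutathione conjugation, thioredoxin reduction, NADPH supply and conjugate export. In liver this program is known for protection against electrophiles, including aflatoxin metabolites.

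Levels are log2 values of the GC-RMA algorithm, so a difference of 1 is a 2-fold difference, and they are relative within a probe set and not comparable between genes. Nfe2l2, which encodes Nrf2, read 11.13, 10.94, 11.08 and 10.96 in Wt 30 μmol/kg livers, against 11.12, 10.77, 11.03 and 11.75 in Wt 3 μmol/kg livers, and 2.78 to 3.10 in the 8 Nrf2-null livers of both doses. Its difference in Wt liver was -0.14 ± 0.16 (log2, SE, n = 4 each, adjusted p = 0.58). The 1 other kept probe set of Nfe2l2 differed by -0.60 in Wt liver. It read 4.5 to 5.6 in Wt 30 μmol/kg, 5.3 to 6.1 in Wt 3 μmol/kg and 6.4 to 7.5 in the 8 Nrf2-null livers. The array medians over the 18935 probe sets kept were 7.50 to 7.65 in the 30 μmol/kg group and 7.71 to 7.80 in the 3 μmol/kg group, without overlap, and the median difference of all 9695 genes tested was -0.14. With each array centred on its median this shift was 0.03, and with the quantiles of the arrays normalized again it was -0.03. On the deposited scale the shift was not the same at all levels. With genes ranked by level in 8 parts, the median difference was -0.06 in the lowest part, -0.22 in the 4th and -0.07 in the highest. Centring moves every gene of an array by the same amount, so it does not follow this dependence on level. A call here is an adjusted p below 0.05 in limma, and because of the shift the calls that held on the deposited scale and under both other scalings are given beside it. The groups also differed in the range of animal numbers on the labels, so any effect of cohort and of dose cannot be told apart. A clock score was the mean of 7 measured evening genes minus that of 5 measured morning genes. It averaged -2.37 ± 0.12 in 30 μmol/kg livers and -2.78 ± 0.22 in 3 μmol/kg livers (SD, n = 4, exact two-sided permutation test, p = 0.057, where 4 mice against 4 allow no p below 0.029). Since the pair was described by similar clock gene levels, this test is no independent check of them, and no conclusion is drawn from it. The score was -2.76 ± 0.14 in vehicle and 2.78 ± 0.81 in 10 μmol/kg livers.

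The 12 largest rises at 30 μmol/kg included Cbr3, Nqo1, Abcc4, Gstm3, Srxn1 and Cbr1 beside genes of other functions such as Ces2b, Socs2 and Abcc12, and the largest falls were spread over genes of several functions, among them Ifit1, Cyp2b10 and Fcgr4. Of 9695 genes, 1626 (16.8%) were called, 177 higher (1.83%) and 1449 lower (14.9%) in 30 μmol/kg livers. Counts of list members given below are to be read against these shares. With arrays centred, 460 were higher and 284 lower (4.74% and 2.93%), and with quantiles normalized again 271 were higher and 390 lower. The share of calls that were higher was 10.9% on the deposited scale, 61.8% centred and 41.0% with quantiles normalized again. Under all 3 scalings 446 genes (4.6%) were called, 170 higher (1.75%) and 276 lower (2.85%). The mice of both groups did not overlap for 2244 genes (23.1%), 311 higher (3.21%) and 1933 lower (19.9%). The difference exceeded 1 on the log2 scale for 28 of the 170 higher genes and lay below -1 for 41 of the 276 lower genes.

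Cbr3, a carbonyl reductase that reduces quinones and ketones with NADPH, had the largest measured rise. It read 10.79, 10.42, 10.91 and 9.41 in Wt 30 μmol/kg livers, against 4.02, 4.00, 6.00 and 4.06 in Wt 3 μmol/kg livers. All 4 mice at 30 μmol/kg were above all mice at 3 μmol/kg, of which 3 read 4.00 to 4.06, beside 4.00 to 4.01 in vehicle livers. The difference was 5.87 ± 0.41 (adjusted p = 7.3e-12), but its size is not settled, since 3 of the 4 readings at 3 μmol/kg lay close to 4, the minimum a gene had to reach on 3 arrays of a group to be tested. In Nrf2-null liver it was 0.05 (adjusted p = 0.98). Nqo1, the quinone reductase most used as a readout of Nrf2, read 9.34, 8.68, 9.27 and 7.97 in Wt 30 μmol/kg livers, against 5.56, 5.56, 6.02 and 6.56 in Wt 3 μmol/kg livers. Its groups were more than 1 log2 unit apart at their closest mice, and it rose by 2.89 ± 0.32 (7.40-fold, adjusted p = 3.2e-07). Abcc4, which exports conjugates and bile acids across the basolateral membrane, read 8.83, 7.99, 9.18 and 8.22 in Wt 30 μmol/kg livers, against 5.19, 5.71, 6.19 and 5.87 in Wt 3 μmol/kg livers. Here the 3 μmol/kg mean of 5.74 was beside the vehicle mean of 5.72, and the rise over 3 μmol/kg was 2.81 ± 0.30 (7.03-fold, adjusted p = 2.4e-07).

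**Figure D1:**
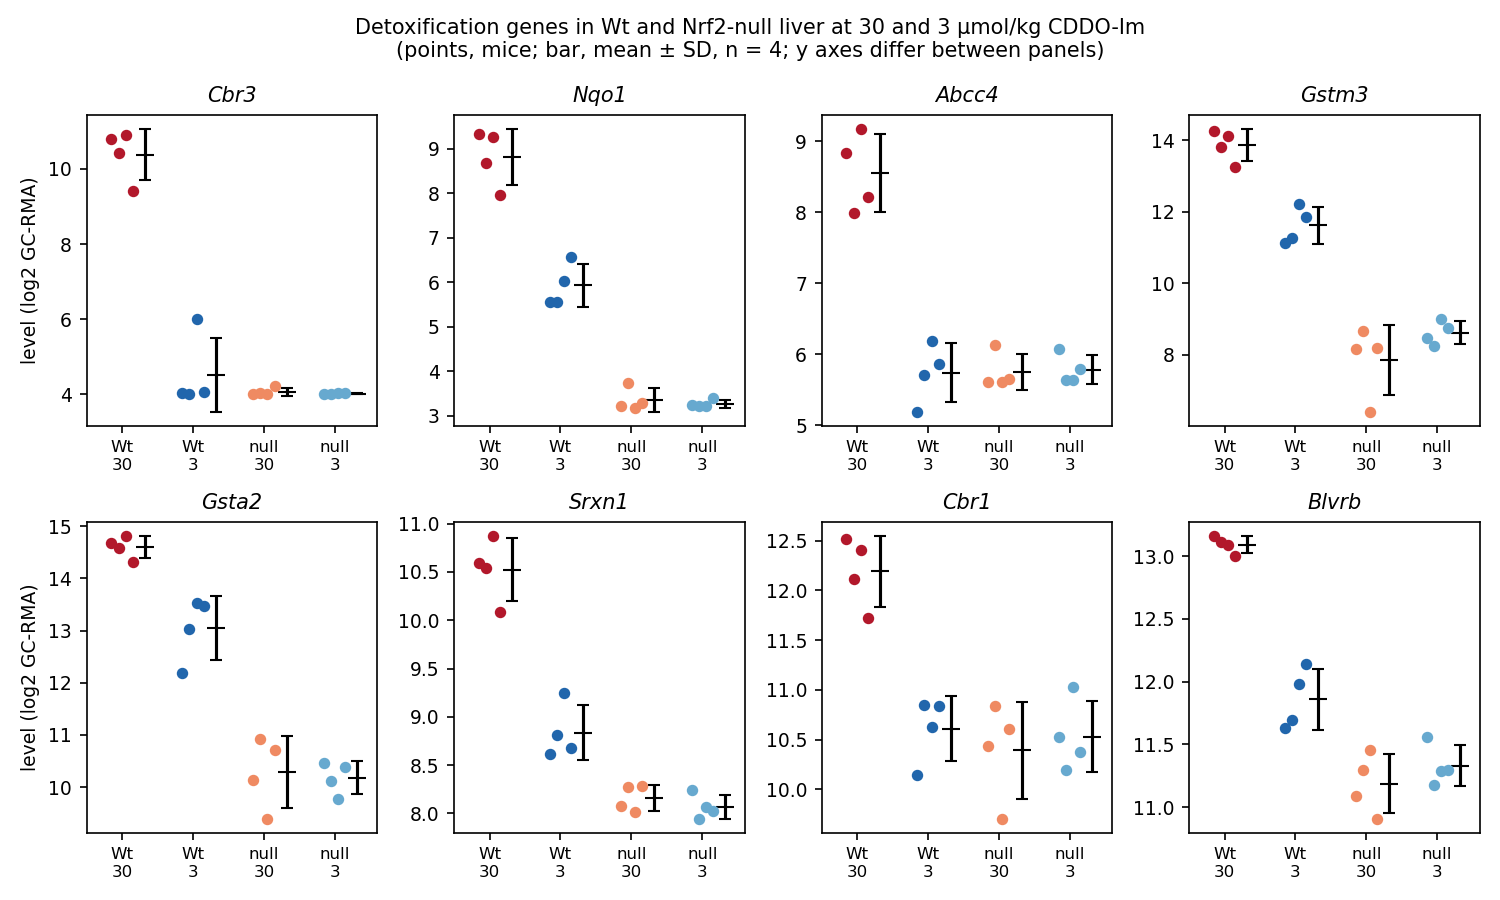
Levels (log2 GC-RMA) of 8 genes in each mouse of the Wt 30, Wt 3, Nrf2-null 30 and Nrf2-null 3 μmol/kg CDDO-Im groups, with the mean and SD of 4 mice beside the points and a separate y axis per panel. In each panel all 4 Wt mice at 30 μmol/kg lie above the Wt mice at 3 μmol/kg, for Cbr3 at 9.41 to 10.91 against 4.00 to 6.00, while the Nrf2-null groups overlap between the doses.

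Promoter windows of 250 bases before to 50 after the annotated start were read from RefSeq, build GRCm38.p6, and searched on both strands for the core of the antioxidant response element, TGACNNNGC. It was found in the windows of 14.0% of 27025 genes, of 17.1% of the 7950 genes tested that had a window, and of 27 of 140 (19.3%) genes higher under all 3 scalings. Of the 12 largest rises 9 had a window, and those of Abcc4, Srxn1 and Ect2 held a match. Shown here, because both genes rose strongly and hold the core close to the start, are the windows of Abcc4 (chr14:118706170-118706469, minus strand, match beginning at position -25) and Srxn1 (chr2:152105274-152105573, plus strand, match beginning at position 28), with the match in capitals, which in both lies on the opposite strand and reads TGACCCCGC and TGACCTAGC there. A match is a description of letters, and binding was not measured.
Abcc4: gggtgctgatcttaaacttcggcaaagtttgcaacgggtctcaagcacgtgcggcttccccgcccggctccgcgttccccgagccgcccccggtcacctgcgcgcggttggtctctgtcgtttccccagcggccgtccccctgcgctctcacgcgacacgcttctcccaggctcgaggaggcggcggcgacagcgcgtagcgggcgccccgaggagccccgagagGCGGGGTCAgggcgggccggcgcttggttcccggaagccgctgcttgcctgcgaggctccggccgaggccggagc
Srxn1: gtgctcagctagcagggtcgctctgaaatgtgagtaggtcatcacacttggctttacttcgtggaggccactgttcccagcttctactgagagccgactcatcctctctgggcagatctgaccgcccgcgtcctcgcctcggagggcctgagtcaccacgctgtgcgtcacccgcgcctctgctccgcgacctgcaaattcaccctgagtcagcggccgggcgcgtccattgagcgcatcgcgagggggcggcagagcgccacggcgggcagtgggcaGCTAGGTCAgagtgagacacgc

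Over 5 lists of detoxification and NADPH supply, 24 of 82 measured genes were higher and 1 lower in 30 μmol/kg livers, against 1.83% and 14.9% of all genes, and 23 of the 24 held under all 3 scalings. Their median difference was 0.24, against -0.14 over all genes. In Nrf2-null liver their median was -0.08, against 0.03 over all genes. There 1 of the 82 was called, near the share of 1.19% called over all genes in that comparison. For 20 of the 24 the Wt group means ascended in the order vehicle, 3, 10 and 30 μmol/kg, as they did for 54 of the 177 genes called higher (30.5%).

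Among the glutathione transferases, which conjugate electrophiles with glutathione, 7 of 19 measured were higher and 1 was lower. Gstm3 read 14.26, 13.81, 14.12 and 13.23 in Wt 30 μmol/kg livers, against 11.11, 11.28, 12.22 and 11.86 in Wt 3 μmol/kg livers, a rise of 2.24 ± 0.35 (4.71-fold, adjusted p = 0.00011). The 1 other kept probe set of Gstm3 rose by 5.08, so the size of its rise is not settled. Gsta2, an alpha-class enzyme, read 14.68, 14.59, 14.81 and 14.32 in Wt 30 μmol/kg livers, against 12.18, 13.03, 13.52 and 13.46 in Wt 3 μmol/kg livers, a rise of 1.55 ± 0.35 (adjusted p = 0.0035). The mice did not overlap for either gene, and the spread was wider at 3 than at 30 μmol/kg for Gsta2. Gstm1 rose by 1.31 ± 0.22, Gstm4 by 1.27 ± 0.25, Gsta4 by 1.17 ± 0.28, Gstm2 by 0.91 ± 0.27 and Mgst3 by 0.85 ± 0.22. The 3 other kept probe sets of Gstm1 differed by 1.67 to 2.08. Gsta3 at 0.06 ± 0.15 and Gstp1 at 0.17 ± 0.11 did not pass. Gstk1, a mitochondrial and peroxisomal member, fell by 0.31 ± 0.11 (adjusted p = 0.038), a call that centring ended (adjusted p = 0.46). Mu-class transferases are near-identical in sequence, and the Gstm3 and Gstm1 probe sets carry the array's suffixes for shared sequence, so signal may be divided among them.

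Of the genes of reduction, hydrolysis and glucuronidation, 9 of 27 were higher and 0 lower, and 26 of the 27 differences were above 0. Cbr1, the carbonyl reductase next of kin to Cbr3, read 12.52, 12.11, 12.41 and 11.72 in Wt 30 μmol/kg livers, against 10.14, 10.85, 10.63 and 10.84 in Wt 3 μmol/kg livers, a rise of 1.58 ± 0.25 (2.99-fold, adjusted p = 0.00011). The highest mouse at 3 μmol/kg, 10.85, stayed below the lowest at 30 μmol/kg, 11.72. Ugdh, which makes UDP-glucuronate, rose by 0.85 ± 0.14, the carboxylesterase Ces1g by 0.81 ± 0.26, the nucleoside diphosphatase Entpd5 by 0.76 ± 0.13, aldehyde oxidase Aox1 by 0.70 ± 0.19, microsomal epoxide hydrolase Ephx1 by 0.54 ± 0.15 and Akr1c13 by 0.32 ± 0.11. The Ces1g call was lost with quantiles normalized again (adjusted p = 0.053). Of the glucuronosyltransferases themselves, Ugt2b5 at 0.15 ± 0.06 (adjusted p = 0.079) and Ugt2b35 at 0.28 ± 0.12 (adjusted p = 0.11) did not pass on the deposited scale and passed with arrays centred.

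Of 14 genes of glutathione and thioredoxin, 5 were higher and 0 lower. Srxn1, sulfiredoxin, which restores overoxidized peroxiredoxins, read 10.60, 10.54, 10.87 and 10.08 in Wt 30 μmol/kg livers, against 8.61, 8.81, 9.24 and 8.68 in Wt 3 μmol/kg livers, a rise of 1.69 ± 0.21 (3.22-fold, adjusted p = 6.1e-06). Its 3 other kept probe sets differed by 0.71 to 1.44 in the same direction. The reductases Gsr and Txnrd1 each rose by 0.55 (SE 0.11 and 0.10, adjusted p = 0.0014 and 0.00044), and Gpx4 and Txn1 by 0.26 ± 0.08 and 0.24 ± 0.07. The other kept probe set was at 0.71 for Gsr and at 1.08 for Txnrd1. The subunits of glutamate-cysteine ligase, the first step of glutathione synthesis, did not pass, Gclc at 0.24 (95% interval -0.18 to 0.67) and Gclm at -0.05 (-0.26 to 0.16). Hmox1, heme oxygenase, was at 0.63 (-0.11 to 1.37).

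Of 9 genes of NADPH supply, 2 were higher and 0 lower, Pgd of the oxidative pentose phosphate pathway by 0.88 ± 0.20 (adjusted p = 0.0039) and transketolase Tkt by 0.69 ± 0.17 (adjusted p = 0.006). Malic enzyme Me1 was at 0.24 ± 0.27 and Idh1 at -0.13 ± 0.10, neither past the threshold. Among 13 efflux transporters Abcc4 alone was called. Abcc2, the canalicular conjugate exporter, was at 0.28 (adjusted p = 0.08, 95% interval 0.05 to 0.51) and Abcc3 at 0.44 ± 0.22 (adjusted p = 0.16). Of the 9 measured genes for Nrf2, Keap1 and partner proteins 0 were called on the deposited scale, and Keap1, at 0.15 ± 0.09 (adjusted p = 0.23), passed with arrays centred (adjusted p = 0.033).

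Blvrb, the flavin and biliverdin reductase, also rose, averaging 13.09 ± 0.07 in Wt 30 μmol/kg livers and 11.86 ± 0.24 in Wt 3 μmol/kg livers (SD, n = 4 each) without overlap of the mice, a difference of 1.23 ± 0.17 (2.35-fold, adjusted p = 2e-05). Within a list of 12 iron and heme genes it was 1 of 2 higher, with ferritin heavy chain Fth1 at 0.15 ± 0.05, which lost its call with quantiles normalized again (adjusted p = 0.069), and 2 were lower, Blvra by 0.34 ± 0.09 and the hepcidin Hamp2 by 1.19 ± 0.41, neither of them with arrays centred.

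**Figure D2:**
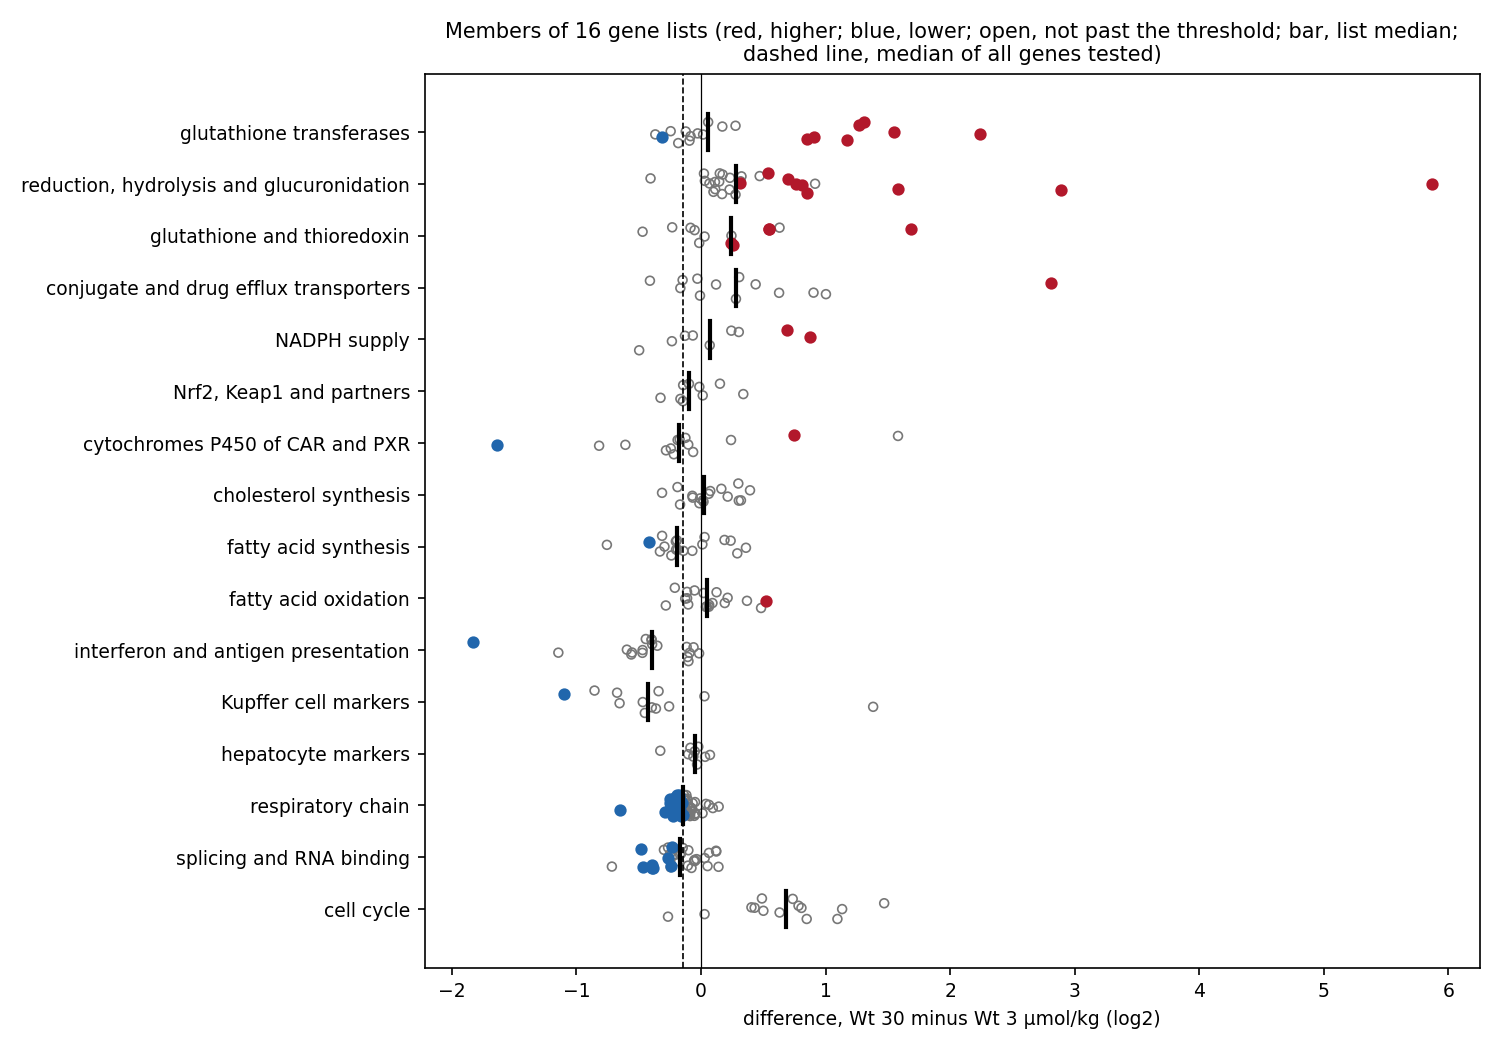
Difference in Wt liver, 30 minus 3 μmol/kg (log2), of each measured member of 16 gene lists. Filled points passed the threshold, thick bars are list medians and the dashed line is the median of all genes, -0.14. All members past the threshold in the 5 detoxification and NADPH lists but Gstk1 lie to the right, up to 5.87 for Cbr3. The respiratory chain points called lower lie close to the dashed line, except Cox7c at -0.65.

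Among the 12 largest rises, 6 were in genes outside these lists, and for 5 of the 6, Abcc12 being the exception, the vehicle mean lay above the 3 μmol/kg mean. Ces2b, a carboxylesterase, read 6.89, 8.80, 7.04 and 6.63 in Wt 30 μmol/kg livers, against 6.32, 3.55, 5.31 and 3.55 in Wt 3 μmol/kg livers, a rise of 2.66 ± 0.50 (adjusted p = 0.00072). The 3 μmol/kg mice were split between low and middle readings, vehicle spanned 3.55 to 6.24, and the 10 μmol/kg mice were all low at 3.55 to 3.74. The low readings lay under the expression minimum of 4, so the size of the Ces2b rise is not settled. Gnai1, an inhibitory G protein alpha subunit, read 7.56, 7.11, 7.33 and 7.33 in Wt 30 μmol/kg livers, against 5.77, 5.14, 6.40 and 5.50 in Wt 3 μmol/kg livers, a rise of 1.63 ± 0.25 (adjusted p = 6.9e-05). Its vehicle mean of 6.66 lay nearer to the 30 than to the 3 μmol/kg group. Abcc12, a transporter whose substrate is not established, read 3.51, 4.94, 5.82 and 5.39 in Wt 30 μmol/kg livers, against 3.16, 2.41, 2.41 and 2.41 in Wt 3 μmol/kg livers, a difference of 2.31 ± 0.24. Vehicle livers read 2.40 to 2.41, under the expression minimum of 4, and so did both Nrf2-null groups, at 2.39 to 2.42. Abcc12 reached the minimum through the Wt 30 μmol/kg group alone, so its values are given as a description, and the size of its difference is not settled. Of the 177 genes called higher 7 reached the minimum in that group alone.

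Socs2, the feedback inhibitor of growth hormone receptor signalling, read 9.09, 10.82, 10.97 and 9.76 in Wt 30 μmol/kg livers, against 7.83, 8.38, 6.43 and 7.65 in Wt 3 μmol/kg livers, a rise of 2.59 ± 0.76 (adjusted p = 0.019). Vehicle livers spanned 6.12 to 11.97 and so covered both groups, and the call was lost when the 20 Wt arrays were fitted alone, and without mouse 2 or 3 at 30 μmol/kg or mouse 3 at 3 μmol/kg (2.37, 2.32 and 2.21). Of the cell division genes, Ect2, the exchange factor of cytokinesis, rose by 1.59 ± 0.40, and Esco2, the cohesin acetyltransferase, was at 1.83 ± 0.43. Esco2 reached the expression minimum in 2 of the 10 groups, and all its mice at 3 μmol/kg lay below it. Esco2 read 4.70, 6.30, 6.27 and 3.84 in Wt 30 μmol/kg livers, against 3.53, 3.37, 3.49 and 3.41 in Wt 3 μmol/kg livers, so 2 of the 4 mice carried most of the difference. The same mice, 2 and 3, were high for Ect2, at 6.59 and 6.66 with 4.82 and 4.68 in the others. In the cell cycle list 0 of 14 measured members passed on the deposited scale, 13 of the 14 differences were above 0 and the median was 0.68. Mcm5 and Mcm6, of the replicative helicase, were at 1.47 ± 0.53 and 1.10 ± 0.39 (adjusted p = 0.052 and 0.051), and 4 members passed with arrays centred.

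**Figure D3:**
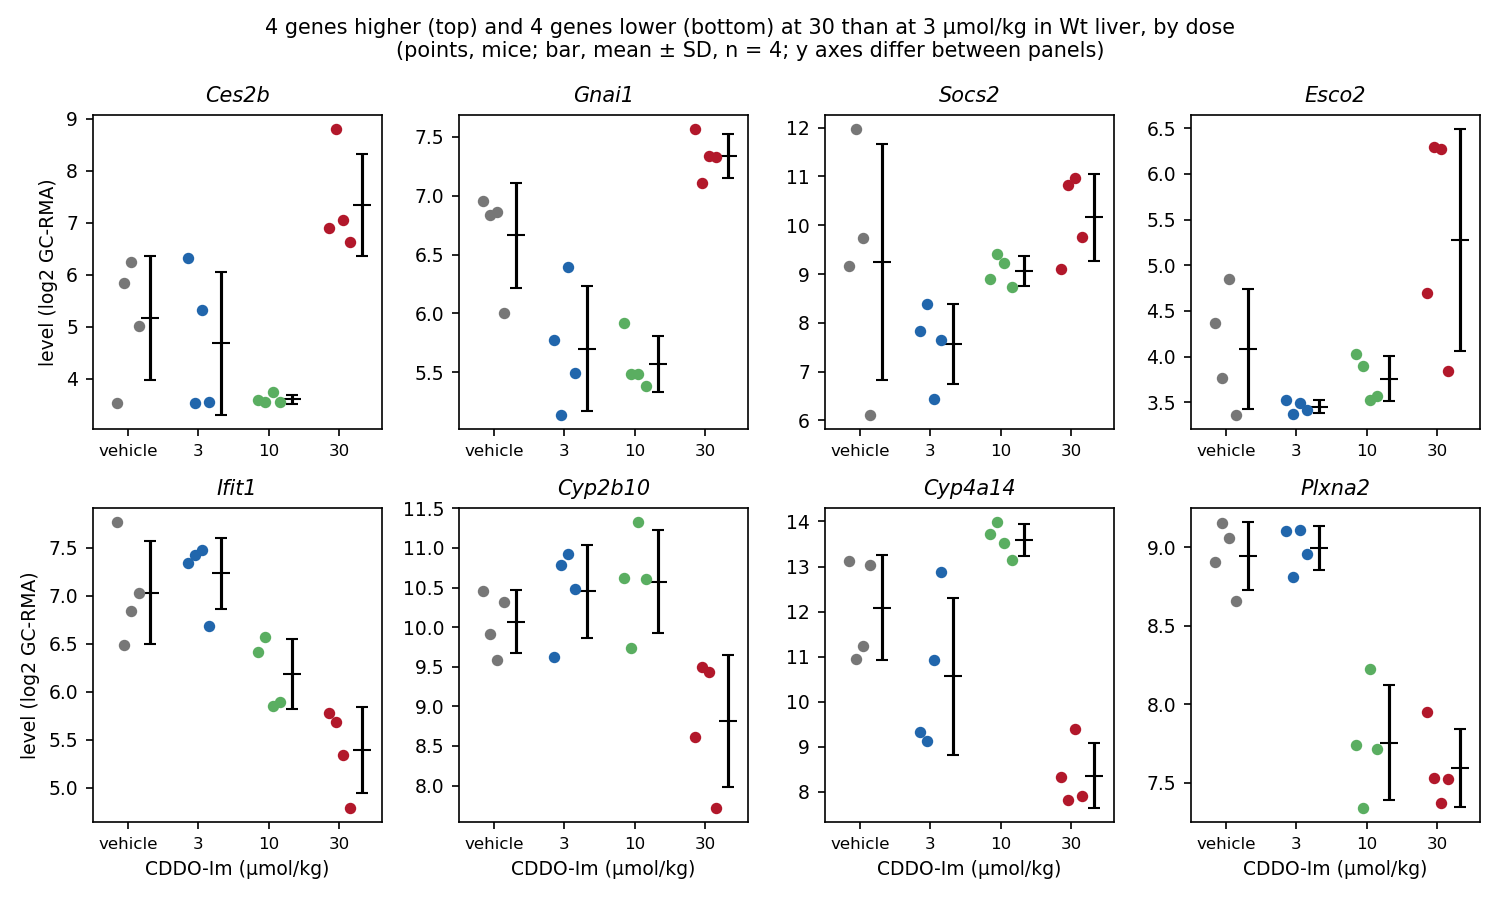
Levels (log2 GC-RMA) in each Wt mouse given vehicle or 3, 10 or 30 μmol/kg CDDO-Im, with the mean and SD of 4 mice beside the points and a separate y axis per panel. For the 4 genes in the upper row the 30 μmol/kg mean is the highest, and the vehicle mean lies above the 3 μmol/kg mean, for Gnai1 at 6.66; in the lower row Ifit1 has a lower mean at 10 than at 3 μmol/kg and Cyp4a14 a higher one, 13.59.

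Of the 170 genes higher under all 3 scalings, group means ascended in the order vehicle, 3, 10 and 30 μmol/kg for 48 (28.2%), and for 111 the vehicle mean lay above the 3 μmol/kg mean. Of the 276 lower genes the means descended in that order for 74 (26.8%), and for 184 the vehicle mean lay below the 3 μmol/kg mean. Over all genes 2.35% ascended and 13.8% descended, which are no like comparison, since the choice of genes by 30 against 3 μmol/kg fixes part of the order. The 10 μmol/kg group stands apart from the other 3 in the clock score given above, and its part in these orders was not tested.

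Among the falls, Tcf24, a basic helix-loop-helix factor, had the largest, with 4.81, 3.87, 3.52 and 3.53 in Wt 30 μmol/kg livers, against 7.82, 7.46, 6.55 and 6.33 in Wt 3 μmol/kg livers. It fell by 3.11 ± 0.86 (adjusted p = 0.014), and its vehicle livers spanned 4.79 to 7.05, which reached both groups. The size of the Tcf24 fall is not settled, since its 30 μmol/kg mean of 3.93 lay under the expression minimum of 4. Plxna2, a semaphorin receptor, fell by 1.40 ± 0.20 (adjusted p = 3.9e-05), with 7.95, 7.53, 7.37 and 7.52 in Wt 30 μmol/kg livers, against 9.10, 8.81, 9.11 and 8.96 in Wt 3 μmol/kg livers. Its 10 μmol/kg mean, 7.76, was already near the 30 μmol/kg group, the vehicle mean of 8.94 was near the 3 μmol/kg group, and 3 other kept probe sets moved the same way. The kinase gene Dclk3 fell by 1.45 ± 0.25 and the zinc finger gene Zfp647 by 1.45 ± 0.23, Stox2 by 1.42 ± 0.32, Ccdc162 by 1.41 ± 0.35, the Wnt pathway gene Dixdc1 by 1.36 ± 0.28 and Arhgap6 by 1.26 ± 0.26. The 30 μmol/kg mean of Zfp647, 3.53, lay under the expression minimum of 4, so the size of its fall is not settled. For Dixdc1 and Stox2 another kept probe set differed by 0.12 and 0.26 in the other direction, and with probe sets averaged Dixdc1 and Arhgap6 lost the call.

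Ifit1, an interferon-induced RNA-binding protein, read 5.78, 5.68, 5.34 and 4.79 in Wt 30 μmol/kg livers, against 7.34, 7.42, 7.48 and 6.69 in Wt 3 μmol/kg livers. It fell by 1.83 ± 0.38 (adjusted p = 0.0017), without overlap of the mice. In the list of 18 interferon and antigen presentation genes it was the 1 member called, where 14.9% of all genes were called lower. In this list 18 of 18 differences lay below 0 with a median of -0.40, against -0.14 over all genes. Ifit2 was at -1.14 ± 0.41 (adjusted p = 0.052), and the class I genes B2m, H2-K1 and H2-D1 at -0.02 to -0.11. The interferon-stimulated response element was searched on both strands as GAAA, any 2 bases and GAAA. It was in the windows of 3.99% of all genes and of 3.81% of the 7950 genes tested that had a window. Among genes lower under all 3 scalings it was in 9 of 225 (4.0%), near the share of genes tested. In the interferon list 8 of the 16 members with a window held it. Of the 12 largest falls 8 had a window, and 4 of these held a match, Ifit1, Fcgr4, Calhm6 and Arhgap6. The Ifit1 window is shown because it holds 2 matches, at positions -104 and -85 (chr19:34640639-34640938, plus strand, build GRCm38.p6, RefSeq), in capitals and read on the opposite strand as GAAAGTGAAA and GAAACTGAAA.
Ifit1: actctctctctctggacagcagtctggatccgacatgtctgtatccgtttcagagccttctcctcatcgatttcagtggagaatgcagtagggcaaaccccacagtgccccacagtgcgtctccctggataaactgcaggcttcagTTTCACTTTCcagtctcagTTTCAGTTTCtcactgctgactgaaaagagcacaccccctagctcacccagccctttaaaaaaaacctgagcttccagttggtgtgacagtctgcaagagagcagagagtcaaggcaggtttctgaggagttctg

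Fcgr4, an Fc receptor of macrophages and monocytes, read 4.99, 5.45, 5.00 and 5.39 in Wt 30 μmol/kg livers, against 6.62, 7.37, 7.31 and 6.06 in Wt 3 μmol/kg livers, and fell by 1.63 ± 0.43 (adjusted p = 0.01). Calhm6, a channel protein of immune cells, fell by 1.52 ± 0.50 (adjusted p = 0.034), a call lost with arrays centred (adjusted p = 0.093). Its 30 μmol/kg mean of 3.78 lay under the expression minimum of 4. Of 12 Kupffer cell markers, all measured, 1 was called, Cd68 by a fall of 1.10 ± 0.28 with 4.65, 4.62, 4.65 and 4.74 in Wt 30 μmol/kg livers, against 5.83, 6.04, 6.23 and 4.97 in Wt 3 μmol/kg livers. The list median was -0.42, the defining genes Clec4f and Vsig4 were at -0.47 ± 0.30 and -0.34 ± 0.31, and Marco was at 1.38 (adjusted p = 0.076). None of the 12 had a group mean below the expression minimum, and their summed linear level was 15622 to 19855 in 30 μmol/kg livers and 14947 to 25352 in 3 μmol/kg livers. In whole liver, fewer cells of a type and less RNA per cell cannot be told apart. Of 10 endothelial markers 1 was called, Cdh5, the endothelial cadherin, by a fall of 0.62 ± 0.14 (adjusted p = 0.0037), and their summed linear level was 5898 to 6551 in 30 μmol/kg livers and 7112 to 8091 in 3 μmol/kg livers. The part of these cell types in the falls above was not tested. Of 9 hepatocyte markers 0 were called, with a median of -0.05 and a summed linear level of 443611 to 467780 in 30 μmol/kg livers and 469444 to 486047 in 3 μmol/kg livers. All these sums are on the deposited scale and carry the shift of the arrays. Probe sets with high readings weigh most in them, so they do not measure amounts of cells. Other non-parenchymal lists gave 1 call each for stellate cells (Dcn) and bile duct cells (Pkhd1), both lost with arrays centred, and 0 for the 3 neutrophil and monocyte, 1 lymphocyte, 2 exocrine pancreas and 1 red blood cell genes measured. The share called lower over all genes, beside the single falls in these cell type lists, was 14.9%.

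Among 14 genes of the receptors CAR and PXR and the cytochromes P450 and heme synthesis they control, 1 was higher, a receptor, and 1 lower. Cyp2b10, the standard target of CAR, read 8.62, 9.50, 9.43 and 7.72 in Wt 30 μmol/kg livers, against 9.62, 10.78, 10.93 and 10.48 in Wt 3 μmol/kg livers. It fell by 1.64 ± 0.50 (adjusted p = 0.024) with all mice at 30 μmol/kg below those at 3 μmol/kg, and the call was lost with arrays centred (adjusted p = 0.072) and without mouse 4 at 30 μmol/kg or mouse 2 or 3 at 3 μmol/kg (-1.27, -1.53 and -1.48). In Nrf2-null liver it fell further, by 3.35 (adjusted p = 0.00067), with 7.27 to 8.10 at 30 μmol/kg and 10.80 to 11.32 at 3 μmol/kg, and the difference between genotypes did not pass (1.71, adjusted p = 0.12). Of the 14 genes 5 were called in Nrf2-null liver, 0 of them higher, where 0.485% of all genes were called lower. The list median there was -0.53, and for 3 of the 14 the dose difference was called higher in Wt than in Nrf2-null liver. Nr1i2, which encodes PXR, rose by 0.75 ± 0.15 (adjusted p = 0.0016), while its target Cyp3a11 was at -0.12 ± 0.05 (adjusted p = 0.095). Alas1, the first enzyme of heme synthesis, read 12.75, 13.18, 12.54 and 12.47 in Wt 30 μmol/kg livers, against 11.99, 11.56, 11.10 and 9.96 in Wt 3 μmol/kg livers, which did not overlap but did not pass (1.58 ± 0.63, adjusted p = 0.078).

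Of 17 cholesterol synthesis genes 0 were called, with a median of 0.02, and of 18 fatty acid synthesis genes 1 was lower, Dgat2 of triglyceride assembly by 0.42 ± 0.12, not with arrays centred. Srebf1, the regulator of lipogenesis, fell by 0.98 ± 0.29 (adjusted p = 0.022), averaging 11.27 ± 0.48 in Wt 30 μmol/kg livers and 12.25 ± 0.23 in Wt 3 μmol/kg livers (SD, n = 4 each) without overlap of the mice, and Mylip, the LXR target that degrades the LDL receptor, fell by 0.92 ± 0.25 (adjusted p = 0.012). Both calls were lost with arrays centred (adjusted p = 0.08 and 0.057), and the lipogenic enzymes Fasn and Scd1 were at -0.20 ± 0.47 and -0.14 ± 0.10. Cyp4a14, a fatty acid hydroxylase induced by PPARα, read 8.32, 7.82, 9.38 and 7.90 in Wt 30 μmol/kg livers, against 9.33, 9.12, 10.92 and 12.88 in Wt 3 μmol/kg livers, a fall of 2.21 ± 0.50 (adjusted p = 0.0036). Mouse 3 at 30 μmol/kg lay above 2 mice at 3 μmol/kg, and the vehicle and 10 μmol/kg means were 12.09 and 13.59. It was the 1 member called of 16 PPARα-inducible genes, and its call was lost with the compared arrays fitted alone (adjusted p = 0.11 in limma). Ppargc1a, a coactivator of fasting metabolism, fell by 1.20 ± 0.31 (adjusted p = 0.0077). That call was lost with the compared arrays alone, without mouse 4 at 30 μmol/kg and without mouse 3 at 3 μmol/kg. Of 19 fatty acid oxidation genes 1 was higher, the peroxisomal thiolase Acaa1a by 0.52 ± 0.17, a call lost under 7 of 18 alternatives. Ppara itself was at -0.13 (95% interval -0.57 to 0.32), Lpin1 at 0.23 (-0.74 to 1.20), Ppargc1b at -0.52 (-1.26 to 0.23), Klf13 at -0.17 (-0.65 to 0.31), Lss at 0.16 (-0.57 to 0.90) and Cyp51 at 0.39 (-0.35 to 1.13).

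In the growth hormone and IGF axis, where Socs2 was the 1 of 11 genes higher, 2 were lower under all 3 scalings. Igfals, the acid-labile subunit that carries IGF1 in blood, fell by 0.76 ± 0.18 (adjusted p = 0.0051), with 8.62, 8.60, 8.49 and 8.69 in Wt 30 μmol/kg livers, against 9.41, 9.40, 9.45 and 9.19 in Wt 3 μmol/kg livers. Stat5b, the transducer of growth hormone receptor signalling, fell by 0.68 ± 0.16 (adjusted p = 0.0043), and neither gene's mice overlapped. Igf1 was at -0.16 ± 0.11 (adjusted p = 0.32). The glucocorticoid receptor Nr3c1 fell by 0.40 ± 0.07 (adjusted p = 0.00021), and Afp, alpha-fetoprotein, differed by 0.96 ± 0.34 (adjusted p = 0.046) with overlapping mice, a call lost under 10 of 18 alternatives.

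The largest counts of members called lower were in lists whose calls changed with the scale. Over all genes 14.9% were called lower on the deposited scale, 2.93% with arrays centred and 390 of 9695 genes with quantiles normalized again. Of 62 respiratory chain genes 23 were lower, with a list median of -0.14 equal to that of all genes, and with arrays centred 0 were lower and 2 higher, while with quantiles normalized again 11 were lower. Of 32 splicing and RNA-binding genes 8 were lower, 0 with arrays centred and 1 with quantiles normalized again. Of 29 complement and coagulation genes 6 were lower, 0 with arrays centred and 4 with quantiles normalized again. F10, coagulation factor X, was called higher on its represented probe set (0.38 ± 0.09), while its other 2 kept probe sets were called lower at -0.53 and -0.50, so its direction is not settled. Of 35 proteasome, 20 endoplasmic reticulum chaperone, 12 integrated stress response, 17 cytosolic heat shock and 13 bile acid genes, 1 proteasome subunit was called lower (Psmb2), and Sesn2 and Hspa8 were called higher, Hspa8 with another kept probe set at -0.62. The calls of Psmb2, Sesn2 and Hspa8 were lost under 9 of 18, 10 of 17 and 4 of 18 alternatives.

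The same doses in Nrf2-null liver gave 115 calls (1.19%), 68 higher (0.701%) and 47 lower (0.485%). Called in both genotypes were 3 genes higher, Col5a3, Edem2 and Ube2s, and 11 lower, among them Cyp2b10 and Pkhd1, which are 3 of the 177 and 11 of the 1449 genes called in Wt liver. Another 9 were called lower in Wt and higher in Nrf2-null liver, and 2 were called higher in Wt and lower in Nrf2-null liver. Tested directly, the dose difference itself differed between the genotypes for 790 genes (8.15%), higher in Wt for 105 (1.08%) and lower for 685 (7.07%). With arrays centred these were 317 higher and 123 lower, and with quantiles normalized again 144 and 145. Of the 170 genes higher under all 3 scalings 59 had a dose difference called higher in Wt than in Nrf2-null liver on the deposited scale and 54 under all 3 scalings. Of the 276 lower genes 179 had one called lower on the deposited scale and 72 under all 3 scalings. Over all genes it was called higher in Wt under all 3 scalings for 96 and lower for 114. The counts among chosen genes and over all genes are no like comparison. The Wt dose difference that chose the genes, and most genes named below, is part of the genotype difference.

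Between genotypes the dose difference of Cbr3 differed by 5.82 (adjusted p = 1.1e-07), that of Gstm3 by 3.00, that of Abcc4 by 2.85 and that of Nqo1 by 2.80. The size for Cbr3 is not settled, since its Nrf2-null readings of 4.00 to 4.21 lay close to the expression minimum of 4. On its represented probe set Gstm3 read 7.85 at 30 and 8.62 at 3 μmol/kg in Nrf2-null liver (means), below every Wt mouse. The rises of Ces2b and Socs2 were not shown to differ, with 1.02 and 1.57 in Nrf2-null liver (differences of 1.64 and 1.02, adjusted p = 0.13 and 0.58). Plxna2 and Cd68, which fell in Wt liver, were at 0.73 and 0.89 in Nrf2-null liver (neither past the threshold), with genotype differences of -2.13 and -1.99 (adjusted p = 3.4e-05 and 0.0033). Ifit1 was at -0.52 in Nrf2-null liver, and its difference did not pass (-1.32, adjusted p = 0.12).

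**Figure D4:**
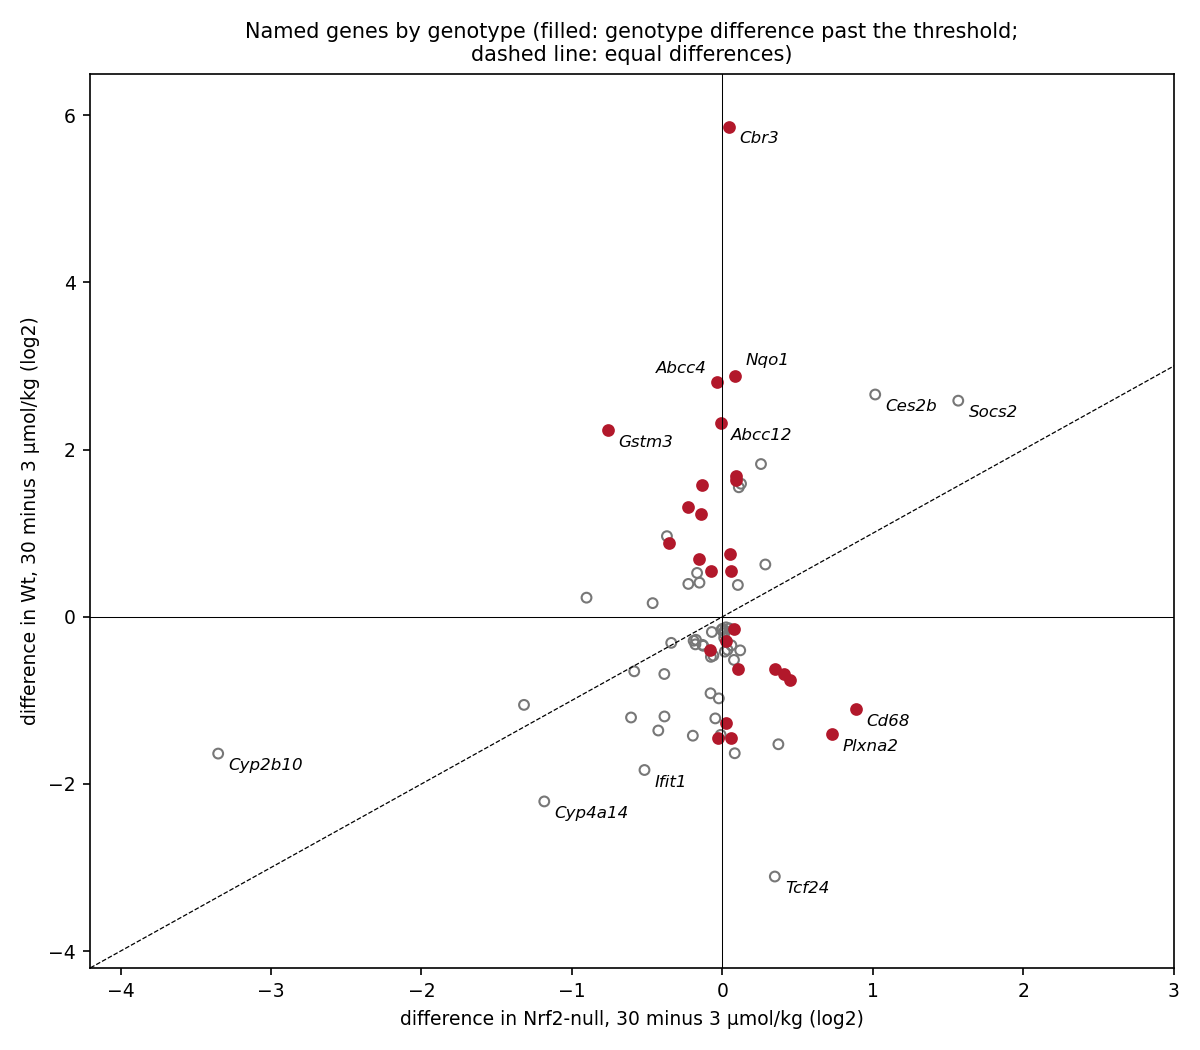
Dose difference in Wt liver (y axis) against that in Nrf2-null liver (x axis), each 30 minus 3 μmol/kg (log2), for the 79 named genes. Filled points had a genotype difference past the threshold, and points on the dashed line would have equal differences. Cbr3 stands highest at 5.87 in Wt and 0.05 in Nrf2-null liver, Gstm3 lies at 2.24 and -0.76, while Cyp2b10 lies far to the left at -3.35.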

How the data were processed

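The authors deposited log2 GC-RMA expression values for 45037 probe sets, corrected for background by probe GC content and quantile normalized; the version is not given in the sources used here, and the deposited values were used as they are. Probe sets had to reach log2 4 on 3 or more of the 4 arrays in some group, and each gene took its values from whichever remaining probe set averaged highest across the 40 arrays (9695 genes, named from the array annotation, 4125 with several kept probe sets, 6 with kept probe sets called in opposite directions). Groups came from the sample labels. All 40 arrays entered 1 fit of 10 group means with limma 3.58.1 in R 4.3.3 (eBayes with trend and robust variances, statmod 1.5.0), with p-values adjusted by Benjamini and Hochberg over all genes of a comparison. The study ran a Kruskal-Wallis test over all treatments and Wilcoxon tests between pairs after it. For this 1 pair of doses limma was used, and exact Wilcoxon tests with a 1.5-fold minimum, without adjustment, were an alternative. The fit was tested on simulated data. The number of arrays limits the precision. Labels give separate mice. The highest correlation between 2 arrays was 0.995, which cannot tell whether a liver was measured again, as no known repeat was at hand to set it against.

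The named genes were the 12 largest rises and 12 largest falls among called genes whose mice did not overlap, genes the study drew, Nfe2l2, and up to 3 called members of each of 53 lists. Members, lists and tests were chosen with earlier results of these data known, and the requirement of all 3 scalings was added after seeing the values. Promoter windows came from RefSeq, build GRCm38.p6. Scores used SciPy 1.17.1 and pandas 2.3.3, and plots Matplotlib 3.10.9, under Python 3.11.15.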

Additional observations from a re-analysis of the deposited data

Results flagged for a closer look

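Single mice stood apart from the other 3 of their group in 9 of 158 groups examined by Dixon's criterion, where chance marks about 1 in 20. At 30 μmol/kg these were mouse 2 for Dixdc1 (7.62) and Lss (9.63), both low, and mouse 1 for Atp5l (12.94), high. At 3 μmol/kg they were mouse 3 for Cbr3 (6.00), Zfp647 (5.28) and Nr1i2 (7.90), mouse 1 for Abcc12 (3.16) and mouse 2 for Sesn2 (5.81), all high, and mouse 4 for Blvra (8.52), low.

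The difference between 30 and 3 μmol/kg differed between Wt and Nrf2-null liver past the threshold for 27 named genes, each given as the Wt difference minus the Nrf2-null difference on the log2 scale. Among genes of conjugation, reduction, export and NADPH supply it was 5.82 for Cbr3, 3.00 for Gstm3, 2.85 for Abcc4, 2.80 for Nqo1, 1.71 for Cbr1, 1.59 for Srxn1, 1.54 for Gstm1, 1.23 for Pgd, 0.85 for Tkt, 0.62 for Gsr and 0.48 for Txnrd1. Other genes with a larger difference in Wt liver were Abcc12 (2.32), Gnai1 (1.54), Blvrb (1.38) and Nr1i2 (0.70). Abcc12 reached the expression minimum through the Wt 30 μmol/kg group alone, so its value is a description. The difference was lower in Wt liver for Plxna2 (-2.13), Cd68 (-1.99), Zfp647 (-1.51), Dclk3 (-1.42), Arhgap6 (-1.29), Igfals (-1.21), Atp6v0b (-1.09), Nags (-0.97), Cdh5 (-0.72), Nr3c1 (-0.31), Atp5l (-0.31) and Rpl22 (-0.22). Adjusted p-values in limma ran from 1.1e-07 for Cbr3 to 0.046 for Atp5l. Most named genes were chosen by a call in Wt liver. The Wt difference is part of the genotype difference, so this choice fixes part of the outcome.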

How the results depend on the processing

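The count of genes called in Wt liver depended on the scale of the arrays, on array weights and on the test. Against 1626 it was 744 with arrays centred, 661 with quantiles normalized again, 446 under all 3 scalings and 2713 with array weights. It was 425 by exact Wilcoxon tests without adjustment and with a 1.5-fold minimum. The 177 higher genes became 460, 271, 321 without an expression minimum and 321 with array weights, and the 1449 lower genes 284, 390, 276 under all 3 scalings and 2392 with array weights. The 115 calls in Nrf2-null liver became 974 with array weights, 73 with the compared arrays alone and 182 by Wilcoxon tests. Both Wilcoxon counts use unadjusted p, since 4 mice against 4 allow no p below 0.029, which could not pass an adjustment over all genes. They are thus not at the threshold of the other counts. The 790 genotype differences became 440 centred, 289 with quantiles, 510 without a minimum and 2236 with array weights. Leaving out 1 mouse gave 949 to 1773 calls in Wt liver, 118 to 178 higher and 831 to 1595 lower, 27 to 206 calls in Nrf2-null liver, and 311 to 968 genotype differences. The Wt count moved by over 1.5 times without mouse 2, 3 or 4 at 30 μmol/kg (971, 1044 and 991) or mouse 3 at 3 μmol/kg (949). The Nrf2-null count moved as far without mouse 1, 3 or 4 at 30 μmol/kg (59, 206 and 27) or mouse 2, 3 or 4 at 3 μmol/kg (66, 53 and 48). The genotype count did so without Wt mouse 2 or 3 at 30 μmol/kg (472 and 519), Wt mouse 3 at 3 μmol/kg (503), Nrf2-null mouse 4 at 30 μmol/kg (311) or Nrf2-null mouse 2 or 4 at 3 μmol/kg (500 and 424). The clock score difference of 0.41 ranged over 0.346 to 0.514 without single mice and was 0.417 without a minimum (exact p = 0.029). Of 72 named calls 33 held in all alternatives, and 25 were lost with arrays centred. Centring turned the sign of Apoc4 (0.0083), Apoh (0.020), Rpl22 (0.029) and Rpl38 (0.036), and averaging probe sets that of F10 (-0.22); the cause was not tested.

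Replicate numbers are shared by the groups but did not pair the samples, since correlations of same-numbered mice ran from -0.072 to 0.17 in Wt liver and from -0.232 to -0.012 in Nrf2-null liver. With the replicate block 1582 genes were called in Wt liver (175 higher, 1407 lower) and 122 in Nrf2-null liver.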
